A study of Mus musculus with 4 samples.

Results

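Atp6v0d2, Dcstamp, Ocstamp, Acp5, Ctsk and Nfatc1 are 6 genes known for macrophage fusion and for the osteoclast, the bone-resorbing cell of the myeloid lineage. They were taken by symbol from the 22180 mouse genes that had an array feature annotated with exactly 1 gene symbol, and all 6 had 1 such feature each. Of those genes, 12542 were bright enough to be tested, and all 6 were among them. Expression was measured on 4 whole-transcript arrays of bone marrow derived macrophages, 2 of knockout and 2 of control cells. The knockout cells came from PP2ACαfl/fl;lyM-Cre mice, whose floxed exon 1 of Ppp2ca, which encodes a catalytic subunit (PP2ACα) of protein phosphatase 2A (PP2A), is removed by a Cre active in myeloid cells. The control cells came from PP2ACαfl/fl mice, which carried the same floxed alleles without Cre. All cells were grown for 6 days with L-cell supernatant, a source of the macrophage growth factor M-CSF, and all were given 100 ng/ml lipopolysaccharide (LPS) for 2 hours. The sample titles call the arrays biological replicates 1 and 2 of each genotype. The labels name no RANK ligand in the cultures and no age of the mice. They do not say whether the 2 replicates of a genotype came from separate mice, so the spread between these arrays may be technical. The p-values rest on that spread, with each gene's variance drawn toward a value shared by all tested genes.

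Osteoclasts arise when mononuclear myeloid precursors that have received M-CSF and RANK ligand fuse into large multinucleated cells, attach to bone through podosomes and secrete acid and proteases onto it. RANK signals through TRAF6, NF-kB and c-Fos, and together with calcium signals from receptors that carry immunoreceptor tyrosine-based activation motifs (ITAM) it induces NFATc1, the transcription factor that switches on the fusion and resorption genes. PP2A is a serine/threonine phosphatase whose catalytic subunit is combined with scaffold and regulatory subunits, and it acts on many kinases of the Toll-like receptor pathways.

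In the knockout macrophages the fusion genes Atp6v0d2 and Dcstamp were 3.32-fold and 2.75-fold lower than in the control cells, with differences of -1.73 and -1.46 log2 units, and Ocstamp was lower by 0.60 log2 units. These 3 genes passed the test across all genes. The resorption gene Acp5 lay lower by point estimate and Nfatc1 higher, and neither passed. Ctsk, also a resorption gene, was kept by the filter through its control arrays alone, and its lower value is given as a description. Of the 6 genes, 3 fell and 0 rose, where 3.49% of all tested genes fell and 3.30% rose (limma adjusted p below 0.05). Their median difference, Ctsk included, was -0.62 log2 units, against 0.0076 over all tested genes.

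**Figure D1:**
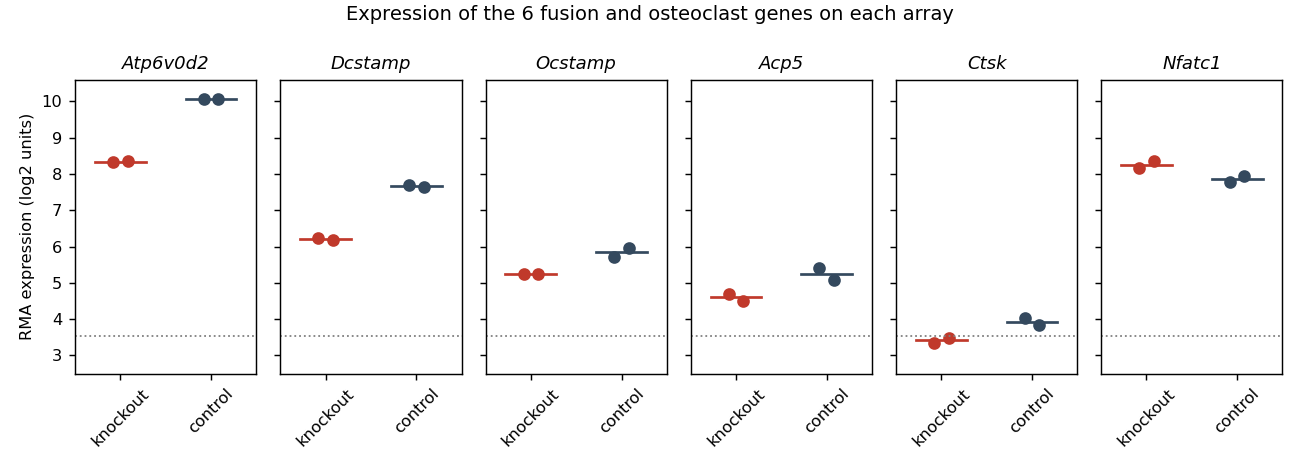
Expression in log2 units (vertical axis) of the 6 genes on each of the 2 knockout and 2 control arrays, where points are arrays, short lines are genotype means and the dotted line is the filter level of 3.53. The knockout points lie below both control points for 5 genes and above them for Nfatc1, and the Ctsk knockout points lie under the filter level.

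The RefSeq promoter table of GRCm38.p6 was searched without the windows on the chromosome of Nfatc1, so that gene was left out beforehand. The search matched 2 of the 6 genes, Acp5 and Ctsk, which are shown for that reason. Both are textbook targets of NFATc1. Atp6v0d2, Dcstamp and Ocstamp, the genes that passed the test, had no window to search. Each window runs from 250 bases before to 50 bases after an annotated transcript start, 5′ to 3′ on the gene's strand. The first is the Ctsk window at chr3:95498960-95499259 on the plus strand, and the second is the innermost of 3 Acp5 windows, at chr9:22130549-22130848 on the minus strand. Capitals mark matches, on either strand, to GGAAA (the NFAT core), GAGGAA (a PU.1 site) and CANNTG (the E-box that MITF can bind, with N for any base).
Ctsk: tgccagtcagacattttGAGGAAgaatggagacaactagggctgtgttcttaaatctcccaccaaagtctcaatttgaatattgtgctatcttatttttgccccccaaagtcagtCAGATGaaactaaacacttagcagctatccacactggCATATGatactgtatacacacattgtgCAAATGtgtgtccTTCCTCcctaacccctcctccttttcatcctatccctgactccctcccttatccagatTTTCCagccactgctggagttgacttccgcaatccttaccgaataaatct
Acp5: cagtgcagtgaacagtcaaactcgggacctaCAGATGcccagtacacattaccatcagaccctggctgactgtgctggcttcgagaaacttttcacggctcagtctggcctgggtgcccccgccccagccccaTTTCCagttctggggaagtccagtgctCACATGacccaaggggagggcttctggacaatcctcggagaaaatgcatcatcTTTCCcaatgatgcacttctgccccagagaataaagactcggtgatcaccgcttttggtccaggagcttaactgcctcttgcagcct

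The Ctsk window held 1 match to GGAAA, 2 to GAGGAA and 3 to CANNTG, and the Acp5 window 2 to GGAAA, 0 to GAGGAA and 2 to CANNTG. The other 2 Acp5 windows each held 1 match to GGAAA and 0 to GAGGAA, with 1 to CANNTG in the one and 2 in the other. The printed Acp5 window held the most matches to GGAAA and was chosen after the matches were seen. These matches are common: over the 32851 promoter windows of the table, 61.3% held GGAAA, 28.3% GAGGAA and 72.3% CANNTG. Neither window held TGANTCA (AP-1, in 7.81% of windows), CACGTG (a form of CANNTG, in 7.15%), the NF-kB motif (in 1.63%) or the interferon-stimulated response element (in 3.44%). GGAAA and GAGGAA can overlap where the sequence reads GAGGAAA.

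Atp6v0d2 encodes the d2 subunit of the membrane part of the vacuolar proton pump (V-ATPase), which mouse preosteoclasts need to fuse. It read 8.32 and 8.36 log2 units on the knockout arrays, against 10.07 and 10.07 on the control arrays. The 2 groups lay far apart, with a gap of 1.71 between them and at most 0.04 between replicates. The means were 8.34 ± 0.028 in knockout and 10.07 ± 0.0012 in control cells (SD, n = 2 each). The difference was -1.73 (SE 0.085), a 3.32-fold lower level with a 95% interval of 2.87 to 3.84, and its limma adjusted p was 0.0024. It ranked 14 of the 12542 tested genes from the most negative difference.

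Dcstamp encodes the dendritic cell-specific transmembrane protein, a multi-pass membrane protein required for the fusion of osteoclasts and of macrophage giant cells in mice. It read 6.22 and 6.19 log2 units in knockout, against 7.69 and 7.64 in control macrophages. Both knockout arrays were low, and the gap of 1.42 between the groups compared with at most 0.044 between replicates. The difference was -1.46 (SE 0.086), a 2.75-fold lower level (95% interval 2.37 to 3.19), with a limma adjusted p of 0.0029, and it ranked 23. For both Atp6v0d2 and Dcstamp the call held with each array left out, with adjusted p between 0.025 and 0.034.

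Ocstamp encodes the osteoclast stimulatory transmembrane protein, a relative of DC-STAMP that is also needed for fusion. It read 5.25 and 5.24 log2 units in knockout, against 5.73 and 5.96 in control cells. The knockout arrays were nearly equal, the control arrays were 0.24 apart, and the groups did not overlap. The difference was -0.60 (SE 0.11), 1.52-fold lower (95% interval 1.25 to 1.83), and passed with a limma adjusted p of 0.039. This call was lost with any 1 of the 4 arrays left out (adjusted p 0.067 to 0.19), with all 22180 genes tested (0.088) and with the replicate number as a block (0.081).

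The within-array log ratio of Dcstamp to Ocstamp differed by -0.86 between the genotypes, and lay between -0.71 and -1.01 over the 4 pairings of a knockout with a control array. An exact two-sided permutation test over the 4 arrays gave p = 0.333, the smallest value that 2 against 2 arrays allow.

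Acp5 encodes tartrate-resistant acid phosphatase, the classical histochemical marker of osteoclasts. It read 4.70 and 4.50 log2 units in knockout, against 5.40 and 5.08 in control macrophages, and the groups did not overlap. The means were 4.60 ± 0.14 in knockout and 5.24 ± 0.23 in control cells (SD, n = 2 each). They differed by -0.65 (SE 0.14), and limma's adjusted p of 0.058 missed the threshold. The 95% interval, which is not adjusted for the number of genes, ran from -1.00 to -0.29, so the size was similar to that of Ocstamp and the replicate spread was larger. It passed where the prior variance was allowed to follow intensity (adjusted p = 0.036).

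Ctsk encodes cathepsin K, the protease that degrades bone collagen. Its feature was dim, at 3.35 and 3.47 log2 units in knockout against 4.03 and 3.83 in control cells, with the knockout arrays under the filter level of 3.53 and the control arrays above it. The gene thus passed the filter on its mean through the control arrays alone. The difference of -0.52 (limma adjusted p = 0.053) is a description, and nothing is read from its test.

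Nfatc1 encodes the transcription factor that drives osteoclast differentiation downstream of RANK. It read 8.15 and 8.37 log2 units in knockout, against 7.78 and 7.94 in control macrophages. It was the single gene of the 6 with both knockout arrays above both control arrays. The difference was 0.40 (SE 0.12, 95% interval 0.11 to 0.69), 1.32-fold, with a limma adjusted p of 0.11. It passed among the brighter 7448 genes of a stricter filter (adjusted p = 0.043) and where the prior variance followed intensity (0.040). The log ratio of Atp6v0d2 to Nfatc1 within an array differed by -2.13 between knockout and control, and lay between -1.96 and -2.30 over the 4 pairings of a knockout with a control array (exact two-sided permutation p = 0.333, the smallest possible).

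Across the 6 genes, 5, with Ctsk among them, had both knockout arrays below both control arrays, as did 26.5% of all tested genes, and 1 had both above, as did 28.8%. By the 1.5-fold cutoff that the series' design text names, applied here to group means with no test, 4 of the 6 genes differed, namely Atp6v0d2, Dcstamp, Ocstamp and Acp5, beside 5.24% of all tested genes. With every knockout array required to be 1.5-fold from every control array, Atp6v0d2 and Dcstamp remained.

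**Figure D2:**
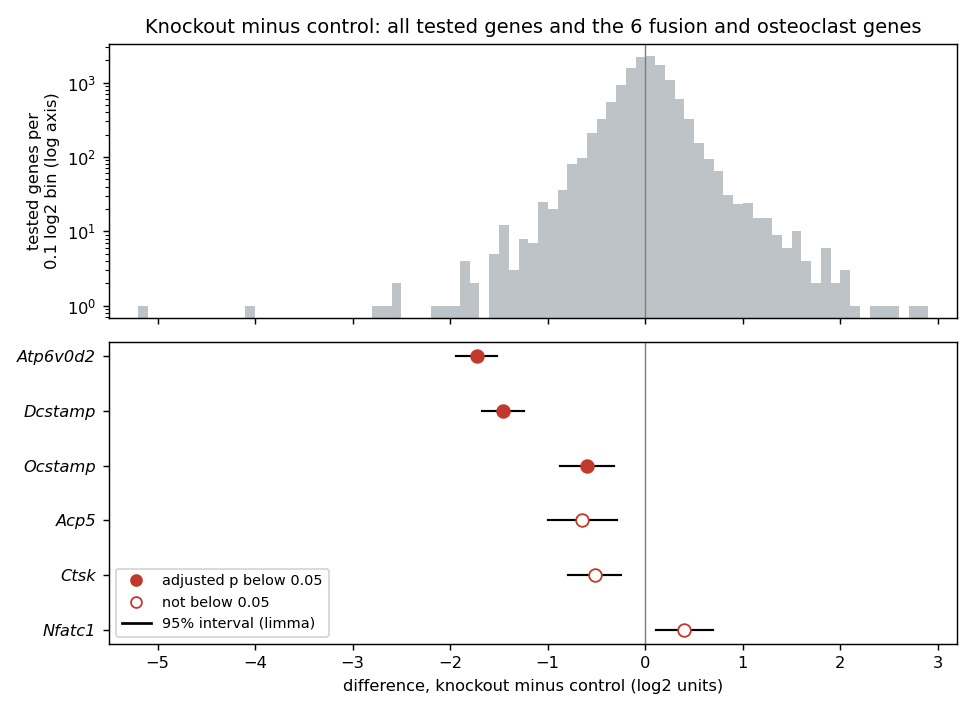
Upper panel, number of tested genes per bin of 0.1 log2 units (log axis) by knockout minus control difference. Lower panel, the differences of the 6 genes with 95% limma intervals, filled where the adjusted p was below 0.05. Atp6v0d2 at -1.73 and Dcstamp at -1.46 lie in the thin left tail, Ocstamp, Acp5 and Ctsk lie between -0.65 and -0.52, and Nfatc1 lies at 0.40. The Ctsk interval is a description only.

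The genotype and cell type labels were checked. The brightest of the 3 features of Ppp2ca read 4.36 and 3.39 log2 units in knockout and 8.25 and 7.59 in control cells (limma adjusted p = 0.0076, and 0.0503 without control replicate 1). Its difference was -4.04, and that of the mean of the 3 features was -2.14. Lyz2, the lysozyme gene that carries the widely used myeloid Cre, is read here as the lyM locus of the labels. It stood at 6.99 and 6.75 in knockout against 12.21 and 11.92 in control cells, a difference of -5.19. Only the knockout cells carried Cre, so effects of Cre or of lower Lyz2 cannot be told apart from those of the Ppp2ca loss. Of 10 macrophage markers, 9 were above the filter level, and their median difference was 0.024. The receptor gene of M-CSF, Csf1r, read 11.60 and 11.61 in knockout and 11.75 and 11.52 in control cells. In such bulk samples fewer cells of a type and less RNA per cell cannot be told apart.

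Fusion genes were then described as a wider list of 23, which holds Atp6v0d2, Dcstamp and Ocstamp. Of the 18 tested, 4 fell and 0 rose, with a median difference of -0.030. Beside the 3 genes above, the fourth was Cd200r1, the receptor of the inhibitory ligand CD200, at 7.15 and 7.04 log2 units in knockout against 8.06 and 7.89 in control cells. Its difference was -0.89 (SE 0.10, limma adjusted p = 0.014), and the call was lost with any 1 array left out (0.051 to 0.098). The 15 tested fusion genes other than Atp6v0d2, Dcstamp and Ocstamp had a median of 0.050 and lay between -0.89 and 0.25. Cd200r1 was the lowest of them, and Itgb3 came next at -0.57.

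Of 15 bone resorption genes, all tested, 2 fell and 0 rose, with a median of -0.14. That median includes Ctsk, which the filter kept through its control arrays alone. The fallers were Atp6v0d2 and Mmp9, the gelatinase of osteoclasts and inflammatory macrophages. Mmp9 read 7.43 and 7.26 log2 units in knockout, against 8.49 and 8.40 in control cells. It differed by -1.09 (SE 0.10, adjusted p = 0.0081). The call of Mmp9 was lost without control replicate 1 or without knockout replicate 2, with an adjusted p of at most 0.057. Tcirg1, the a3 subunit of the proton pump that osteoclasts place at the bone surface, differed by -0.11 (adjusted p = 0.49).

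Among the genes of the V-ATPase, Atp6v0d2 was the one that passed, of 20 subunit and accessory genes tested, and the other 19 lay between -0.31 and 0.37 with a median of -0.13. Atp6v0d1, the widely expressed paralog that encodes the d1 subunit, read 9.62 and 9.63 log2 units in knockout and 9.81 and 9.75 in control cells, a difference of -0.16 (SE 0.086, adjusted p = 0.32). The within-array log ratio of Atp6v0d2 to Atp6v0d1 differed by -1.57 between the genotypes and by -1.53 to -1.62 over the 4 pairings (exact two-sided permutation p = 0.333, the smallest possible).

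Cathepsin K was set beside the other cathepsins, the proteases of the lysosome and of antigen processing. Of 12 tested, 2 rose and 0 fell, with a median of 0.016. Ctsk, which the filter kept through its control arrays alone, counts in that median. Ctse, an aspartic protease of endosomes, rose by 0.71 (SE 0.088, adjusted p = 0.016), and Ctsh, an aminopeptidase of lysosomes, by 0.59 (SE 0.086, adjusted p = 0.024). Both calls were lost with any 1 array left out. The 11 tested cathepsins other than Ctsk had a median of 0.050 and lay between -0.055 and 0.71. Of the 5 tested acid phosphatase genes 0 passed, and Acp5 was the only one of them with an unadjusted p under 0.05. The other 4 lay between -0.024 and 0.16.

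Podosomes are the adhesive actin structures by which osteoclasts seal themselves to bone. Of 18 tested podosome and adhesion genes 2 fell and 0 rose, with a median of 0.016. Vcl, the gene of vinculin, read 8.11 and 8.20 log2 units in knockout against 9.23 and 9.14 in control cells, with a difference of -1.03 (SE 0.092, adjusted p = 0.0075), and lost its call without knockout replicate 1 or 2 (adjusted p up to 0.061). Tln1, the gene of talin 1, which links integrins to vinculin, differed by -0.55 (SE 0.097, adjusted p = 0.036), and lost its call with any 1 array left out. Itgb3, the beta subunit of the vitronectin receptor of osteoclasts, read 4.53 and 4.35 in knockout against 5.13 and 4.88 in control cells, a difference of -0.57 (SE 0.12) that did not pass (adjusted p = 0.057).

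**Figure D3:**
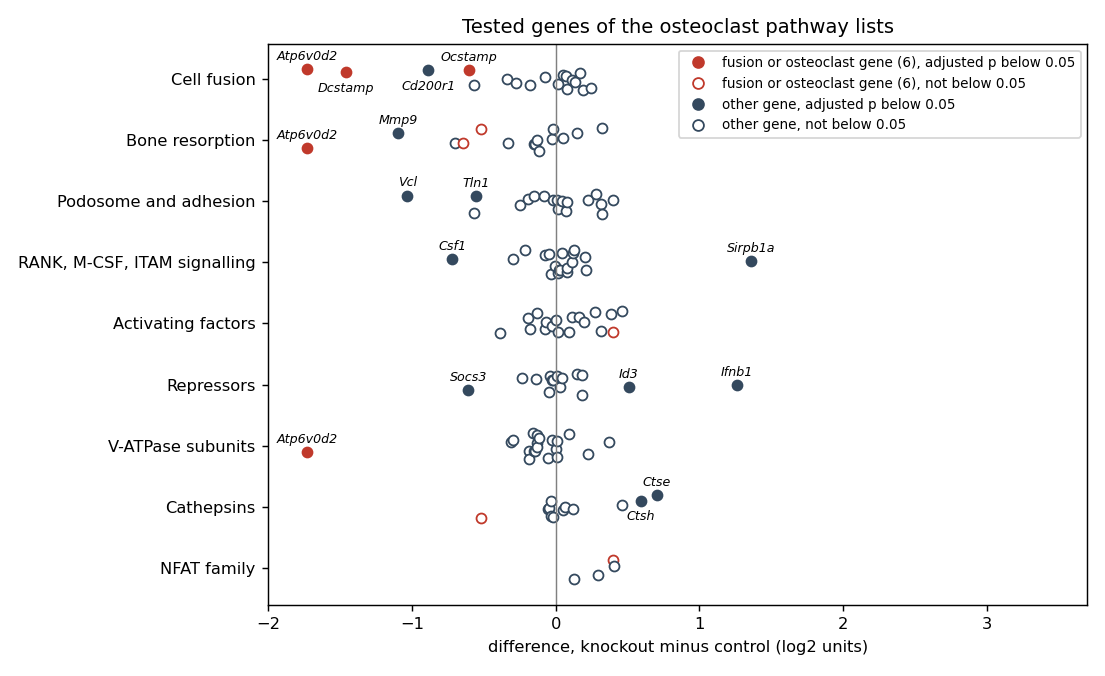
Knockout minus control difference in log2 units (horizontal axis) of every tested gene in 9 lists, with red for the 6 fusion and osteoclast genes, dark blue for other genes, and filled points for an adjusted p below 0.05. Named falls appear in the fusion, resorption, podosome, signalling, repressor and V-ATPase lists, and most other points lie near 0.

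Genes that act upstream of NFATc1 were next. Of 19 tested genes of RANK, M-CSF and ITAM signalling, 1 rose and 1 fell, with a median of 0.028. Tnfrsf11a, which encodes RANK itself, read 9.62 and 9.69 log2 units in knockout and 9.54 and 9.52 in control cells, a difference of 0.12 (adjusted p = 0.44). Traf6, the adaptor below RANK, differed by 0.015 (adjusted p = 0.94), with a negative sign after median centring. Csf1r differed by -0.033 (adjusted p = 0.89), with a positive sign without control replicate 1. Tnfsf11, the RANK ligand gene, lay under the filter level on each array, at 2.90 and 2.93 in knockout and 2.79 and 3.40 in control cells.

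The faller of the signalling list was Csf1, the gene of M-CSF, at 7.60 and 7.83 log2 units in knockout against 8.41 and 8.46 in control cells. Its difference was -0.72 (SE 0.11, adjusted p = 0.027). The call was lost with any 1 array left out (0.080 to 0.13), without the filter and with the replicate block. The riser was Sirpb1a, a receptor that signals through the ITAM adaptor DAP12, at 9.18 and 9.25 in knockout against 7.94 and 7.77 in control cells (difference 1.36, SE 0.10, adjusted p = 0.0054). Its call held with each array left out, but Sirpb1a has close paralogs whose transcripts its probes may also read.

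Of 18 tested transcription factors and coactivators that promote osteoclast formation, Nfatc1 among them, 0 passed limma at an adjusted p below 0.05, and 6 had an unadjusted p under 0.05. Over all tested genes 3099, or 24.7%, had one, which is the background for this and every other unadjusted count given here. Their differences lay between -0.39 and 0.46, with a median of 0.057. Fos, the gene of c-Fos, which is required for osteoclast formation in mice, read 9.63 and 9.64 log2 units in knockout and 9.43 and 9.30 in control cells, a difference of 0.27 (SE 0.092, adjusted p = 0.15). Within the NFAT family 4 genes were tested and 0 passed, with 3 at an unadjusted p under 0.05. The 4 tested differences lay between 0.13 and 0.41.

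Of 15 tested genes known to restrain osteoclast formation, 2 rose and 1 fell, with a median of 0.0090. Ifnb1, the gene of interferon beta, which inhibits osteoclast formation by lowering c-Fos protein, read 8.45 and 8.42 log2 units in knockout against 7.35 and 6.99 in control cells. Its difference was 1.26 (SE 0.14, adjusted p = 0.012), and the call was lost without knockout replicate 1 or 2 (adjusted p up to 0.073). Id3, an inhibitor of helix-loop-helix factors, differed by 0.51 (SE 0.10, adjusted p = 0.047), and Socs3, a brake on cytokine receptors, by -0.61 (SE 0.098, adjusted p = 0.031). Both of those calls were lost with any 1 array left out. Irf8 and Bcl6, repressors of osteoclast genes, differed by 0.15 (adjusted p = 0.36) and 0.18 (adjusted p = 0.31). Irf8 had 2 features, and their mean differed by -0.0072. Socs3 also had 2 features, and its call was lost where their mean was used.

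Of 6 genes for receptors of mature osteoclasts 4 were tested and 0 passed, with 1, Itgb3, at an unadjusted p under 0.05. Calcr, the calcitonin receptor, read 2.54 and 2.41 log2 units in knockout and 2.48 and 2.47 in control cells, and Oscar, an ITAM-linked collagen receptor, 3.11 and 3.08 in knockout and 3.28 and 3.06 in control cells, all under the filter level.

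Genes with the profiles most like those of the 3 fallen genes were found by the root mean square difference of values centred on the mean of the 4 arrays. For Atp6v0d2 these were Rgs16, a regulator of G protein signalling (0.094 log2 units), Slc7a11, the cystine transporter (0.094), and Nptx1, neuronal pentraxin 1 (0.11). Their own differences were -1.80, -1.60 and -1.51. For Dcstamp they were Clec5a, a DAP12-linked lectin receptor (0.018), F3, tissue factor (0.025), and Bhlhe40, a transcriptional repressor (0.042), with differences of -1.43, -1.45 and -1.42. For Ocstamp they were Hk2, hexokinase 2 (0.017), Ppat, an enzyme of purine synthesis (0.025), and Icam4, an adhesion molecule (0.028), with differences of -0.59, -0.58 and -0.65. Of these 9 genes Ppat did not pass (adjusted p = 0.053). Slc7a11 had 2 features, of which the brighter was used, and its difference lay between -1.68 and -1.11 over the alternative settings. The calls of Hk2 (adjusted p 0.070 to 0.196) and Icam4 (0.060 to 0.18) were lost with any 1 array left out, and also with no filter and with the replicate block. The 4 arrays fall into 2 genotypes, so genes with a genotype difference of similar size score as alike.

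**Figure D4:**
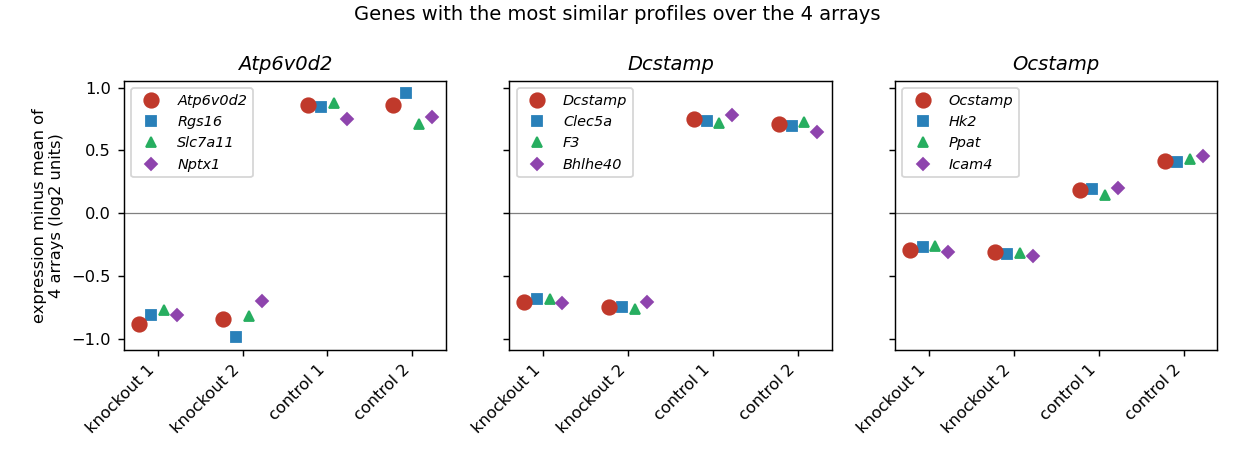
Expression minus the mean of the 4 arrays (log2 units, vertical axis) on each knockout and control array, for Atp6v0d2, Dcstamp and Ocstamp (red circles) and the 3 genes most like each. The knockout points lie below 0 and the control points above it in all 3 panels, and for Ocstamp and the genes like it control replicate 2 lies above control replicate 1.

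Markers of other myeloid cells moved beside the fusion genes. Of 5 tested monocyte markers 3 rose and 1 fell, where 6.79% of all tested genes passed in either direction: Ms4a4c at 1.50, Ccr2 at 0.83 and Ly6c2 at 0.76 rose and F13a1 at -0.79 fell. Their summed unlogged level was 1290 to 1353 in knockout and 1236 to 1355 in control cells. Of 4 tested dendritic cell markers the integrin gene Itgax fell, at -2.54, and the list's sum was 223 to 248 in knockout against 394 to 433 in control cells. Without Itgax the sum was 182 to 210 in knockout and 176.5 to 198 in control cells, and the other 3 tested markers differed by -0.04 to 0.40. Of 5 tested neutrophil markers Mmp8 fell, at -0.84, with a sum of 399 to 437 in knockout against 606 to 657 in control cells. Without Mmp8 the sum was 127 to 137 in knockout against 118 to 123 in control cells, and the other 4 tested markers differed by 0.11 to 0.34. Of the 8 dendritic cell markers with a feature 4 had means under the filter level, namely Zbtb46, Xcr1, Siglech and Batf3. So did 4 of the 9 neutrophil markers, namely Ly6g, S100a8, Elane and Camp. Of the calls on markers of these and the lymphoid, stromal, megakaryocyte and macrophage lists, those of Ms4a4c and Itgax held with each array left out and the others were lost in at least 1 such fit. The part of these cells in the differences of Atp6v0d2, Dcstamp and Ocstamp was not tested.

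Markers of T and NK cells (4 of 6 with a mean under the filter level), B cells (3 of 4) and stromal cells and osteoblasts (5 of 9) gave 0 limma calls, with 1, 0 and 0 of the tested genes at an unadjusted p under 0.05. Their summed unlogged levels for T and NK cells were 127.7 to 128.3 in knockout against 93.0 to 107 in control cells. Most of that sum came from Cd4, at 6.36 and 6.43 log2 units in knockout against 5.81 and 6.01 in control cells. Cd4 differed by 0.49 (limma adjusted p = 0.057), while Cd3e, Cd3d, Cd8a and Klrb1c had means under the filter level. The sums were 64.8 to 66.0 against 56.7 to 60.4 for B cells, and 111.5 to 112.1 against 109.6 to 117.4 for stromal cells and osteoblasts. Of 3 tested erythroid and megakaryocyte markers Vwf fell, at -0.88, and Ppbp, at -0.45. The list's sum was 543.8 to 544.0 in knockout against 577 to 742 in control cells. Most of it came from Pf4, at 8.81 and 8.83 log2 units in knockout against 9.23 and 8.79 in control cells. Pf4 overlapped between the groups and did not pass (limma adjusted p = 0.51). Of the macrophage markers Fcgr1 rose, by 0.94 (SE 0.12, adjusted p = 0.016), and the sum of the 10 was 19304.6 to 19305.1 in knockout against 17227 to 18385 in control cells.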

How the data were processed

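RNA of 4 macrophage cultures was measured on 1-colour arrays from 400 ng of total RNA each. The deposited log2 values were made by the authors, per the series' text, with the RMA algorithm, which adjusts background, normalizes and summarises probes. Software named in the submitters' processing notes is oligo and RMA, with versions not given in the sources used here. After it, a change in total RNA per cell can no longer be seen. Of 41345 features, 23521 had 1 symbol in the platform's annotation, 1814 several and 16010 none. For the 1082 genes with several features the brightest was used. Genes with a mean of at least 3.53, the median over all features, were tested, 12542 of 22180. The genotypes were compared by limma 3.58.1 under R 4.3.3 (lmFit, then eBayes with a constant prior and no block), two-sided, with Benjamini-Hochberg adjustment and a threshold of 0.05. The 2 residual degrees of freedom, and the number of arrays, limit precision. The prior variance, shared by all tested genes, carried 3.51 degrees of freedom in each gene's test. The fit called 852 genes, of which 69 kept their call with each array left out in turn.

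Data of 12542 genes were simulated with 200 genes changed and independent normal noise drawn from the fitted prior variance. There the comparison of 2 against 2 arrays found 16.3% of the 1.5-fold, 80.6% of the 2-fold and 96.4% of the 3-fold changes. Of its calls 4.39% were false. These rates belong to that setting and may differ in the real data, where 852 genes were called. The 6 genes, the lists and the rule for naming genes were chosen with earlier results of these data known. The rule named the 6 genes, 16 fixed genes, up to 4 called genes per list, and the 3 genes most like each of the 6 that was called. Rose, fell and passed refer to this test. Alternatives covered the filter, normalization, feature averaging, leaving out each array, a replicate block and the variance model. No samples were left out.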

Additional observations from a re-analysis of the deposited data

How the results depend on the processing

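The number of genes called in all, 852, was 333 with no filter, 1487 with the stricter filter, 312 with the replicate block, 1584 with an intensity trend of the prior variance and 96 to 174 with 1 array left out. The count of the 6 genes called, 3, was 5 with the intensity trend (Acp5 and Nfatc1 added) and 2 to 4 in the other settings with all 4 arrays. The counts of 4, with quantile normalization and with median centring, include Ctsk, from whose test nothing is read. At 2-fold, or with every knockout array 1.5-fold from every control array, 2 genes remained of the 4 past 1.5-fold. The Ocstamp difference of -0.60 lost its call with no filter, with the replicate block (adjusted p = 0.081) and with any array left out (-0.72 to -0.48). Acp5 (-0.65) and Nfatc1 (0.40) passed with the intensity trend, and Nfatc1 also with the stricter filter. Ctsk, which the filter kept through its control arrays alone, is described only. It differed by -0.55 with quantile normalization and by -0.56 with median centring. With 1 array left out Atp6v0d2 lay between -1.75 and -1.71, Dcstamp between -1.48 and -1.44, Acp5 between -0.81 and -0.49, Ctsk between -0.62 and -0.42 and Nfatc1 between 0.29 and 0.51. No direction of the 6 turned under these alternatives, and with groups that do not overlap no left-out array could turn one. Signs turned for Csf1r without control replicate 1 (0.084, range -0.15 to 0.084 with 1 array left out), Irf8 with its features averaged (-0.0072), and Traf6 with median centring (-0.027), without control replicate 1 (-0.040) and without knockout replicate 2 (-0.0082, range -0.040 to 0.070 with 1 array left out). Of the 33 called genes named, 12 kept their call with each array left out. Same-numbered arrays deviated from their genotype means with r = -0.036 across genes, so the numbers were not taken to pair the arrays. The causes of these changes were not tested. The filter settings differ in the number of genes tested, and the fits with an array or a degree of freedom less have lower replication.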
